A study of Mus musculus with 12 samples.

Results

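The transcripts uc008dpc.1 and uc008dpd.1 carried few ribosome footprints in wild-type newborn mouse eyes and several-fold more in eyes without RNG140, while their mRNA levels overlapped between the genotypes. They are 2 of the 63759 UCSC transcript identifiers counted, and 2 of the 42689 with any count. They were taken by identifier, and were picked with values of these same libraries known. Their listed lengths are 2061 and 1383, a size the authors gave for each transcript without a unit. The identifiers were not matched to genes in the files or reference tables used here, so the protein, the genomic position and the sequence of the pair are not given. Because the pair was chosen from these data, its values below are a description with no test of genotype.

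The tissue was whole eye at postnatal day 0.5, from wild-type (WT) mice and from mice labelled RNG140 knockout (KO). Ribosome profiling and mRNA sequencing each had 3 WT and 3 KO libraries, 12 in all. The labels name no allele, strain, sex, litter or batch, and do not state whether each library had its own mice, so part of the spread between them may be technical. The knockout was not checked on the targeted gene, and the eye on marker genes, because identifiers were not paired with gene names; in whole tissue, fewer cells of a type and less RNA per cell cannot be told apart.

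RNG140, the product of Caprin2, is an RNA-binding protein found in cytoplasmic RNA granules, and in the eye it is known for its expression in lens fibre cells. In ribosome profiling, nuclease removes the RNA that ribosomes do not cover, and the fragments left are sequenced. The number of footprints on a transcript depends on how much mRNA there is and on how densely ribosomes occupy it. The ratio of footprints to mRNA, often called translation efficiency, sets one against the other.

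The number of reads behind each value was small, which limits the precision. Footprint libraries held from 327847 to 5966639 counts and mRNA libraries from 666464 to 1244104. For uc008dpc.1 the footprint counts were 2, 4 and 17 in WT libraries 1, 2 and 3, and 78, 66 and 61 in the KO libraries. For uc008dpd.1 the WT libraries held 1, 2 and 12, and the KO libraries 53, 39 and 38. The shallow WT libraries 1 and 2 thus measured the pair from 4 reads or fewer per transcript, and WT library 3 from the most. In mRNA, the WT libraries gave 45, 18 and 13 counts for uc008dpc.1, and the KO libraries 17, 15 and 11. For uc008dpd.1 the WT libraries gave 34, 11 and 9 mRNA counts, and the KO libraries 12, 12 and 7. Levels below are CPM, counts divided by the library total and multiplied by 1000000. Intervals in brackets are 95% intervals and cover counting error only.

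The mRNA of uc008dpc.1 stood at 36.2, 27.0 and 17.8 CPM in the WT libraries and at 24.0, 18.9 and 14.2 CPM in the KO libraries. The KO mean was the lower, at 19.0 ± 4.87 CPM against 27.0 ± 9.17 (SD, n = 3), but the genotypes overlapped, since KO libraries 1 and 2 lay above WT library 3. Of the 14651 features with a mean of at least 10 mRNA counts, 24.7% had every KO library below every WT library and 9.56% had every KO library above, and uc008dpc.1 and uc008dpd.1 were in neither set. In the edgeR fit of all 14131 features tested in mRNA, the log2 fold change of KO over WT was -0.25 with a standard error (SE) of 0.35. The change was thus smaller than its error under this scaling (TMM); on library totals alone, the scale of the CPM above, it was -0.53 (SE 0.37).

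For uc008dpd.1 the mRNA levels were 27.3, 16.5 and 12.4 CPM in the WT libraries, against 16.9, 15.1 and 9.06 CPM in the KO libraries. Means were 18.7 ± 7.73 CPM in WT and 13.7 ± 4.11 in KO (SD, n = 3), and again the genotypes overlapped. The fitted log2 fold change was -0.22 (SE 0.41), and -0.50 (SE 0.42) on library totals alone. WT library 1 was the highest of the 6 for both transcripts, and without it the fitted values were -0.02 for uc008dpc.1 and 0.13 for uc008dpd.1. Without KO library 3, the lowest of the 6 for both, they were -0.06 and 0.03. The sign of the difference in uc008dpd.1 therefore turned on either of these libraries. The median over the 2965 tested features of listed length 1000 or more was -0.31, against 0.02 over all features tested, so the mRNA difference of the pair lay among those of other long features.

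Footprint levels of the pair differed between the genotypes, and these values were known when the pair was chosen. The footprint level of uc008dpc.1 was 6.10, 4.72 and 2.85 CPM in WT libraries 1, 2 and 3. In the KO libraries it was 14.2, 29.1 and 32.5 CPM. Every KO library lay above every WT library, and KO library 1 was lowest among the KO libraries. Means were 4.56 ± 1.63 CPM in WT and 25.3 ± 9.76 in KO (SD, n = 3).

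The footprint level of uc008dpd.1 was 3.05, 2.36 and 2.01 CPM in the WT libraries, against 9.64, 17.2 and 20.3 CPM in the KO libraries. Here too the lowest KO library stood above the highest WT library. Means were 2.47 ± 0.53 CPM and 15.7 ± 5.47 CPM (SD, n = 3). Among all 18234 features with a mean of at least 10 footprint counts, 13.6% had every KO library above every WT library, and 7.8% had every KO library below. Both transcripts reached that mean through their KO counts, as the 3 WT libraries together held 23 and 15, so the share is printed beside them and nothing is read from it.

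The WT and KO libraries of nearest depth, WT library 3 and KO library 1, held 5966639 and 5498069 counts. For uc008dpc.1 these libraries gave 2.85 CPM (Wilson interval 1.78 to 4.56) and 14.2 CPM (11.4 to 17.7). For uc008dpd.1 they gave 2.01 CPM (1.15 to 3.52) and 9.64 CPM (7.37 to 12.6). These values, too, are among those the pair was chosen with, and they are given for their depth. WT library 1 was much less certain, with an interval of 1.67 to 22.2 CPM for uc008dpc.1 that reached past the level of KO library 1.

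**Figure D1:**
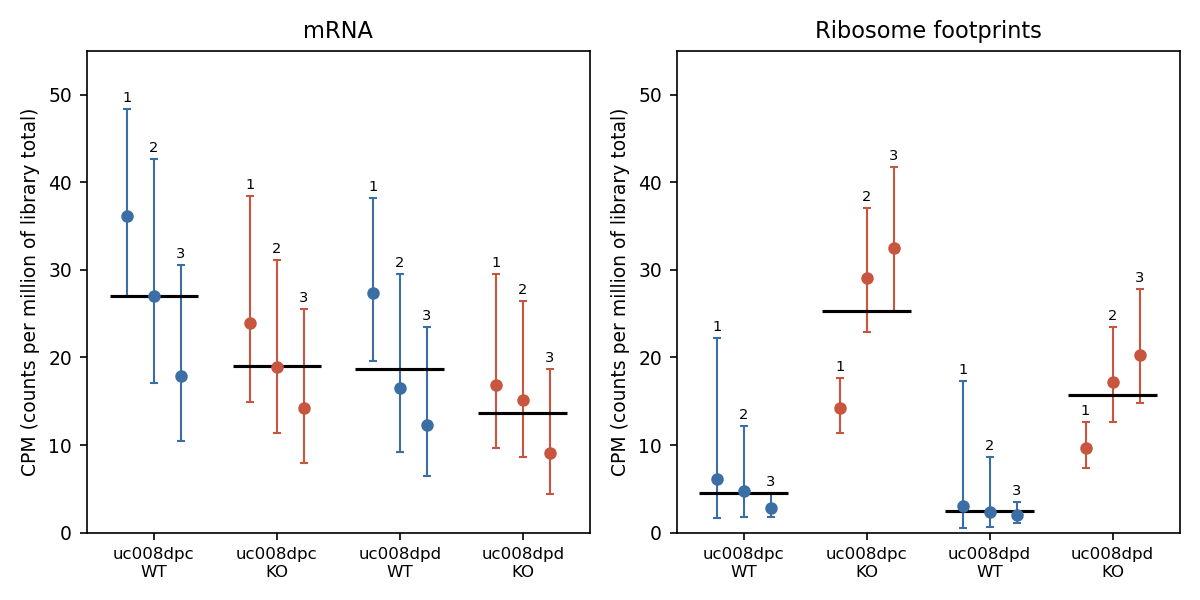
Levels of uc008dpc.1 and uc008dpd.1 in CPM in mRNA (left) and ribosome footprints (right); each point is a library with its number, WT blue and KO red, vertical bars are 95% Wilson intervals of counting error and black lines are group means (n = 3). The mRNA points of the genotypes overlap, whereas the footprint points of uc008dpc.1 lie at 2.85 to 6.10 CPM in WT and 14.2 to 32.5 CPM in KO.

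Fitted across all 17236 features tested in footprints, the log2 fold change of KO over WT was 2.55 (SE 0.43) for uc008dpc.1 and 2.54 (SE 0.45) for uc008dpd.1. These are folds of 5.88 and 5.82. In the order of fitted footprint changes, 32 features lay above uc008dpc.1 and 34 above uc008dpd.1, where the median of all features was -0.02. Among the 2817 tested features of listed length 1000 or more, 2 and 4 lay above them, and the median was -0.27. The pair was chosen with these footprint values known, and its WT counts were few. Its place in either order is therefore a description, and nothing is read from it. When the counts of the 3 libraries of a genotype were added up, the KO to WT ratio of uc008dpc.1 was 6.60 (exact conditional interval 4.28 to 10.7) and that of uc008dpd.1 was 6.42 (3.75 to 11.8). The same ratio of summed mRNA counts was 0.656 (0.440 to 0.966) for uc008dpc.1 and 0.665 (0.414 to 1.05) for uc008dpd.1. These intervals leave out the spread between libraries. Of the 7141611 WT footprint counts in all, 5966639 were in WT library 3, which had the lowest level of the pair, so that library weighs most in the WT sums. The KO to WT ratios of mean footprint CPM were 5.55 for uc008dpc.1 and 6.35 for uc008dpd.1.

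Footprint libraries also differed in how much of them a few features took. With each distinct set of 12 counts kept once, the 16 features that held over 1% of any library made up 17.2%, 25.4% and 24.7% of the remaining counts of WT footprint libraries 1, 2 and 3. They made up 27.3%, 13.5% and 15.5% in the KO libraries. KO library 1, which had the lowest footprint level of the pair in KO, had the highest share. It was also the deepest KO footprint library, at 5498069 counts. WT library 3, with the lowest level of the pair in WT, was the deepest in WT, at 5966639. Neither the share nor the depth was tested as a source of these differences. With the 16 features left out of the total of remaining counts, the mean footprint level of uc008dpc.1 was 34.1 ± 10.9 CPM in KO and 6.47 ± 2.01 in WT (SD, n = 3), a ratio of means of 5.27. With them kept in, the means on that total were 28.2 ± 10.8 CPM and 5.06 ± 1.78, a ratio of 5.57. Every KO library remained above every WT library on this scale, for uc008dpd.1 as well. The share of all features that did so was not computed on this scale. On the full totals it was 13.6% of the 18234 features with a mean of at least 10 footprint counts, and nothing is read from it.

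The footprint-to-mRNA ratio was lower in the WT than in the KO samples. For uc008dpc.1 the footprint CPM divided by the mRNA CPM of the library with the same number was 0.169, 0.175 and 0.160 in WT. In KO it was 0.592, 1.54 and 2.29. For uc008dpd.1 the WT ratios were 0.112, 0.143 and 0.163, and the KO ratios 0.570, 1.14 and 2.24. The labels do not say that a number joins libraries of the same tissue, so this pairing is a convention.

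All 3 KO ratios exceeded all 3 WT ratios in both transcripts. That was so for 9.7% of the 13235 features with a mean of at least 10 counts in both assays, while 6.53% had every KO ratio below, shares that are again printed and not read, since the ratio shares its contrast with the choice of the pair. The lowest KO ratio was within reach of counting error: KO library 1 had an exact interval of 0.347 to 1.07 for uc008dpc.1, and the WT intervals reached up to 0.646 in library 1, 0.531 in library 2 and 0.358 in library 3. KO libraries 2 and 3, with intervals from 0.871 to 2.91 and from 1.19 to 4.82, lay above the whole of all 3. For uc008dpd.1, with 1 and 2 footprint reads in WT libraries 1 and 2, the WT intervals were wide, from 0.00275 to 0.665 and from 0.0154 to 0.655. The interval of KO library 1 (0.301 to 1.17) overlapped all 3 WT intervals and that of KO library 2 (0.585 to 2.39) overlapped those of WT libraries 1 and 2, while that of KO library 3 (0.987 to 5.94) lay above all 3.

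The narrow range of the WT ratios, 0.160 to 0.175 in uc008dpc.1, was tighter than the counting error of any one of them. When each footprint library was divided by the mean mRNA level of its genotype in place of the same-numbered library, the WT ratios of uc008dpc.1 were 0.226, 0.175 and 0.106 and the KO ratios 0.746, 1.53 and 1.71. Every KO ratio again lay above every WT ratio, and the share of all features that did so was not computed with this denominator. The WT ratios were no longer alike: the SD on the log2 scale was 0.56 in WT and 0.65 in KO.

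**Figure D2:**
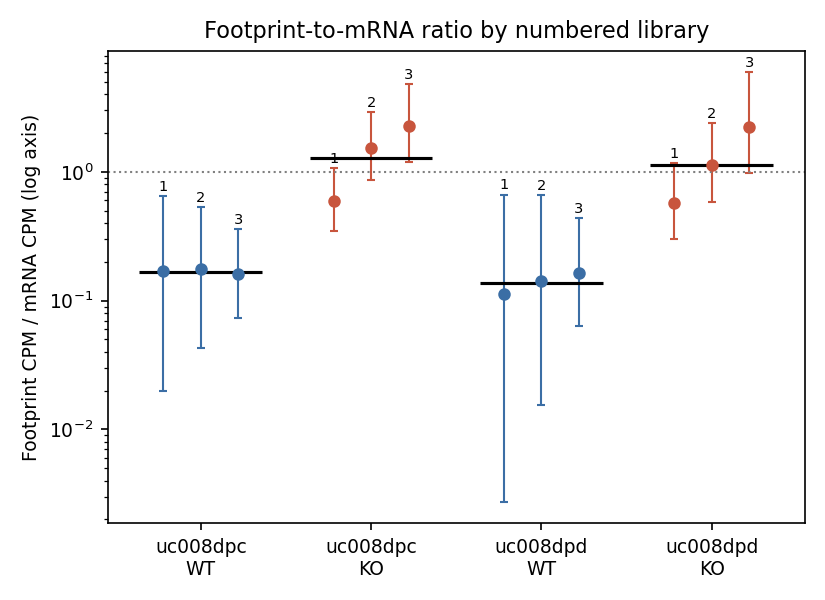
Footprint CPM over mRNA CPM of the same-numbered library, on a log axis, for both transcripts in WT (blue) and KO (red); vertical bars are 95% exact intervals of counting error and black lines are geometric means (n = 3). For uc008dpc.1 the WT points lie between 0.160 and 0.175 and the KO points between 0.592 and 2.29.

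In the edgeR model of all 12 libraries, the assay-by-genotype term, which is the log2 change of the ratio in KO over WT, was 2.88 (SE 0.55) for uc008dpc.1 and 2.81 (SE 0.62) for uc008dpd.1. Leaving out replicates in turn gave 2.57 to 3.26 for uc008dpc.1 and 2.37 to 3.40 for uc008dpd.1. Of the 25927 features fitted, 140 had a higher value than uc008dpc.1 and 153 a higher value than uc008dpd.1, with a median of -0.07 over all. Among the 3479 of listed length 1000 or more, 19 and 21 were higher, and the median was 0.21. By fitted ratio change, uc008dpc.1 stood at percentile 99.46 of all features fitted and at 99.43 of those of listed length 1000 or more. For uc008dpd.1 these percentiles were 99.41 and 99.37. Larger values were about as frequent among the long features as among all. The ratio shares its contrast with the choice of the pair, so these ranks are a description and nothing is read from them. The plot of the ratio change against listed length places the pair among the features that have a listed length.

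**Figure D3:**
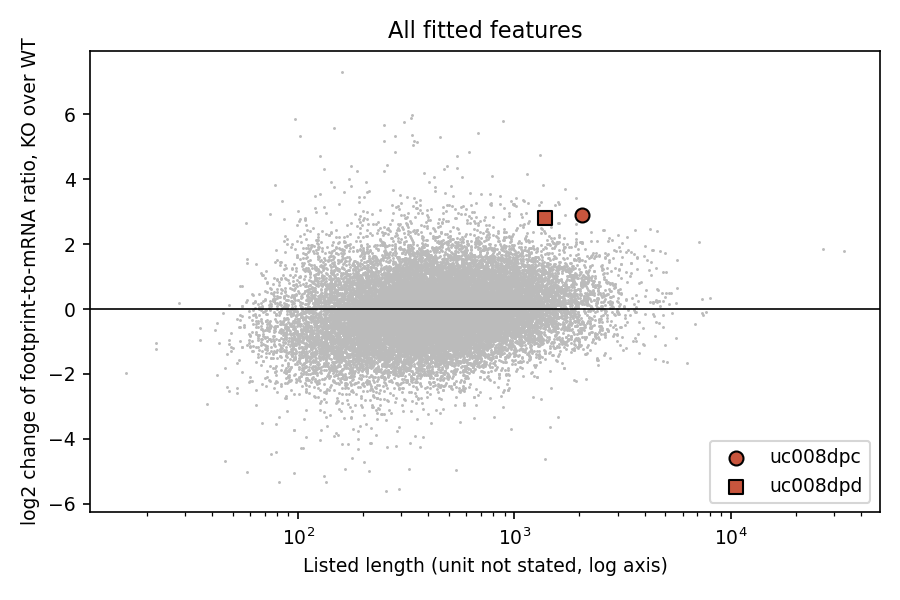
Fitted log2 change of the footprint-to-mRNA ratio, KO over WT, against listed length on a log axis for all fitted features with a listed length (grey points), with uc008dpc.1 and uc008dpd.1 marked in red. The pair lies at 2.88 and 2.81, near the upper edge of the points of like length.

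Against other features of the same sample, the ratio of the pair is placed here as a description only, because the comparison set needed a mean of at least 10 counts in both assays, which the pair had through its KO footprints, and because the ratio shares its contrast with the choice of the pair. Of those 13235 features, uc008dpc.1 stood at percentile 3.35, 9.22 and 22.9 in WT samples 1, 2 and 3, and at 64.6, 84.7 and 93.8 in the KO samples. For uc008dpd.1 the percentiles were 1.93, 8.37 and 27.0 in the WT samples, with 63.5, 76.6 and 93.1 in the KO samples. The median log2 ratio of all these features was itself different between samples, at -0.47 in WT sample 1 and -1.38 in WT sample 3.

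Per listed length, the mRNA of the pair was scarce. The mRNA level of uc008dpc.1 was 13.1 ± 4.45 CPM per 1000 of listed length in WT and 9.23 ± 2.36 in KO (SD, n = 3). That of uc008dpd.1 was 13.5 ± 5.59 and 9.90 ± 2.97. In WT these levels lay at percentiles 2.15 and 2.40 of the 14651 features with a mean of at least 10 mRNA counts, whose median was 56.7. By CPM without the length, the WT percentiles were 44.3 and 24.2. The set was cut on counts, so a long feature with few counts ranks low per listed length. In footprints, uc008dpc.1 moved from 2.21 ± 0.79 CPM per 1000 of listed length in WT to 12.3 ± 4.73 in KO, and uc008dpd.1 from 1.79 ± 0.38 to 11.4 ± 3.96. In KO these footprint levels stood at percentiles 24.1 and 21.4 of the 18234 features with a mean of at least 10 footprint counts, whose median was 25.0 CPM per 1000 of listed length. By CPM without the length, the KO percentiles were 77.5 and 62.3. The place in WT is not given, since the pair is in that set through its KO counts.

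The members resembled each other closely. Their log2 CPM over the 12 libraries had a Pearson correlation of 0.988, given as a description since both members share every library. In all 12 libraries uc008dpc.1 had more counts than uc008dpd.1. The count of uc008dpd.1 was between 50.0% and 80.0% of that of uc008dpc.1, and its listed length was 67.1% of the other. Over all footprint libraries it was 63.6% of the count of uc008dpc.1 (Wilson interval 57.2 to 69.6), and over all mRNA libraries 71.4% (62.7 to 78.8). These intervals take the reads of uc008dpd.1 as part of those of uc008dpc.1, for which the next paragraph gives the sums.

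Another identifier accounts for the counts of the longer member that the shorter one lacks; it was chosen after its values were seen. The counts of uc008dpb.1, of listed length 639, and of uc008dpd.1 added up to exactly those of uc008dpc.1 in 9 of 12 libraries, and fell short by at most 2 counts in the others. In KO footprint library 1, for example, 25 and 53 counts made up the 78 of uc008dpc.1. In WT mRNA library 1, 11 and 34 made up its 45. Over all libraries of an assay, the sums were 226 of 228 footprint counts and 117 of 119 mRNA counts. The listed lengths behaved in the same way, with 2022 for the sum of the shorter identifiers against 2061 for uc008dpc.1.

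The counts of uc008dpd.1 thus appear to be contained in those of uc008dpc.1, with reads counted once for each transcript they fall on. The members are then largely 1 measurement given under 2 identifiers, and the likeness of their fold changes is not a repeat of the result. The counting rule of the authors is not given in the sources used here, so the sharing of reads rests on these sums.

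**Figure D4:**
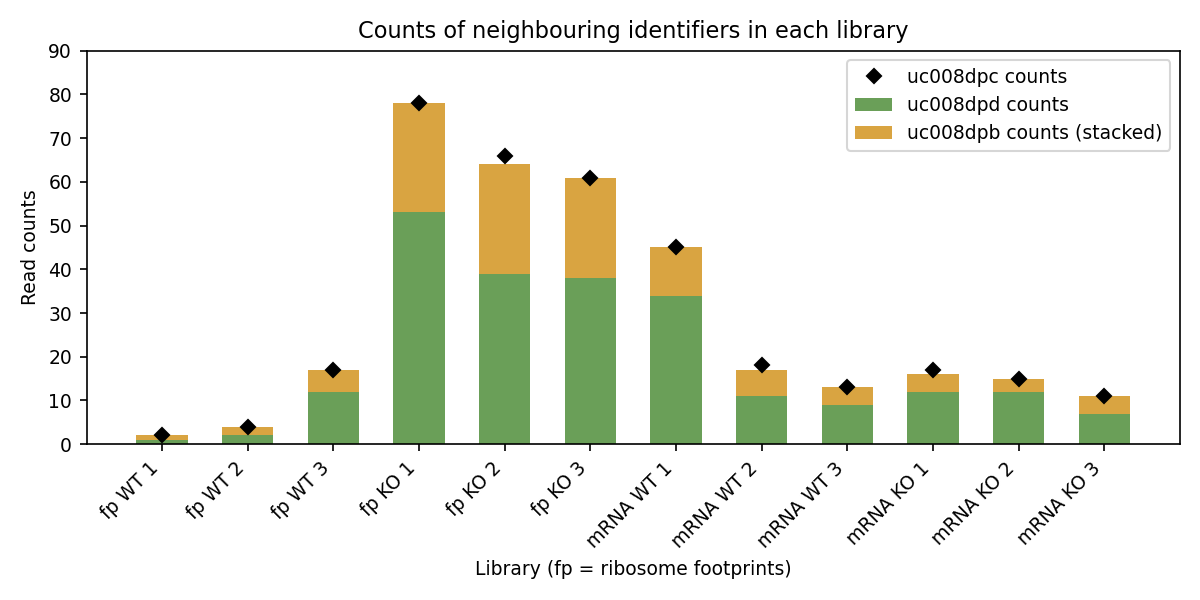
Read counts in each of the 12 libraries: bars stack uc008dpd.1 (green) and uc008dpb.1 (yellow), and black diamonds show uc008dpc.1. The top of the stack meets the diamond in 9 libraries and lies at most 2 counts below it in the other libraries.

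If uc008dpb.1 and uc008dpd.1 share few or no reads with each other, they split the reads of uc008dpc.1 into separate parts. The sums allow this, but read positions were not available to show it. The WT libraries held 1, 2 and 5 footprint counts of uc008dpb.1, and the KO libraries 25, 25 and 23, which is at most 3.05 CPM in a WT library and at least 4.55 CPM in a KO library. Every KO library was above every WT library in uc008dpb.1 too. That was so for 13.6% of all features with a mean of at least 10 footprint counts. As uc008dpb.1 reached that mean through its KO counts, nothing is read from the share. Its mRNA counts were 11, 6 and 4 in the WT libraries, against 4, 3 and 4 in the KO libraries. The fitted log2 change of its ratio was 2.99 (SE 0.79). These counts appear to belong to the reads of uc008dpc.1 itself, were seen before the identifier was named and are few in WT. They are given as a description and support nothing further.

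The next identifier, uc008dpe.1 of listed length 795, had no more counts than uc008dpd.1 in any of the 12 libraries. It had 0, 2 and 7 footprint counts in the WT libraries, against 32, 22 and 18 in the KO libraries. The fitted log2 change of its ratio was 2.82 (SE 0.70). Its reads may be among those of uc008dpd.1 and were few in WT, so this value is not a repeat of the result. On the other side, uc008dpa.1 of listed length 771 did not follow the pair. The WT libraries held 8, 12 and 28 of its footprints and the KO libraries 36, 24 and 17, with fitted log2 changes of -0.29 (SE 0.43) in footprints, -0.34 (SE 0.36) in mRNA and 0.24 (SE 0.54) in the ratio.

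Identifiers that begin with uc008dp number 26, of which 21 had counts. Leaving out the pair, uc008dpb.1 and uc008dpe.1, the mean footprint CPM of the other 17 with counts was between 0.566 and 2.16 times as high in KO as in WT. The corresponding values were 5.55 for uc008dpc.1, 6.35 for uc008dpd.1, 4.46 for uc008dpb.1 and 7.11 for uc008dpe.1. The pair and these neighbours were set apart with their values known. The gap between them and the other identifiers therefore follows from that choice, and nothing is read from it. Among the 17, every KO footprint library lay above every WT library in 3 and below in 1. The shares over all distinct features with a mean of at least 10 footprint counts were 13.6% and 7.8%. Some of the 17 had fewer counts than that, and uc008dpy.1 and uc008dpz.1 had the same counts. The sets are thus unlike, and the shares are printed and not compared.

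Of 13228 distinct features outside this stretch with a mean of at least 10 counts in each assay, those whose log2 CPM followed the summed counts of the pair most closely over the 12 libraries were uc007dpp.2 (Pearson correlation 0.957, listed length 414) and uc009ner.2 (0.930, listed length 1076). The median correlation over these features was 0.335. In uc007dpp.2 the footprint level was 17.3 ± 3.77 CPM in WT and 43.8 ± 8.49 in KO, and the mRNA level 62.0 ± 15.7 and 37.8 ± 5.86 (SD, n = 3). In uc009ner.2 the footprint level was 5.51 ± 1.93 CPM and 16.8 ± 7.81, and the mRNA level 21.1 ± 4.27 and 16.4 ± 5.57 (SD, n = 3). Their fitted log2 ratio changes, 1.90 (SE 0.47) and 1.86 (SE 0.58), were smaller than those of the pair. Both features were picked for following the pair over these libraries, and the pair was itself chosen from these data. Neither the direction of their changes nor the smaller size is therefore read as a result.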

How the data were processed

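The labels describe RNase I footprinting with pelleting of ribosomes for the footprint libraries and a stranded TruSeq preparation for mRNA. The submitters' processing notes name the mm10 build, TopHat2 2.0.9, Bowtie2 2.3.4.2 and CASAVA 1.8, without a counting rule. The deposited values are read counts for each transcript, in whole numbers and without normalization. The authors also gave another number per transcript, of unstated unit (an other value, here the listed length).

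CPM were taken on the full library total. For fits, transcripts with the same 12 counts were kept once, leaving 32803 features. Fold changes and SE came from edgeR 4.0.16 quasi-likelihood fits (R 4.3.3, TMM scaling, default low-count filter; for the ratio, the assay-by-genotype term of 1 model, with at least 10 counts summed in each assay), tested on simulated data. Log2 CPM used a prior count of 2. Intervals are 95%, by scipy 1.17.1. Named features are the pair, its neighbours by identifier and the 2 features most correlated with it. The members, lists and alternatives were chosen with earlier results of these data known. No file or table used here gives the gene of an identifier.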

Additional observations from a re-analysis of the deposited data

How the results depend on the processing

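The alternatives were DESeq2 1.42.0 (as test and as size factors), library totals alone, no low-count filter, every transcript separate, each replicate left out and the replicate number as a block; a block for each numbered sample was added after seeing the data. The footprint and ratio changes of both transcripts kept their sign in all of them and moved by less than the SD between libraries. With replicates left out, the log2 changes ran from 2.42 to 2.77 (uc008dpc.1) and 2.41 to 2.80 (uc008dpd.1) in footprints, from 2.57 to 3.26 and 2.37 to 3.40 in the ratio, and from -0.45 to -0.02 and -0.42 to 0.13 in mRNA. The mRNA change of uc008dpd.1 reversed to 0.13 without WT replicate 1 and to 0.03 without KO replicate 3. On library totals alone it was -0.50, and that of uc008dpc.1 -0.53. With the replicate block the values were -0.20 and -0.15 in mRNA, 2.63 and 2.70 in footprints, and 2.86 and 2.77 in the ratio; with each numbered sample as a block the ratio gave 2.69 and 2.62. The numbers were not shown to pair the samples: the deviations from group means of libraries with one number had correlations of -0.347 to 0.115 between WT and KO footprints and of 0.0429 to 0.545 between assays, and in KO 3 of 3 mRNA libraries correlated best with the footprint library of their number, in WT 2 of 3. Of the 686 features with a mean of at least 100 counts in both assays, 25.7% had every KO library above every WT library in mRNA. In the ratio, 16.2% had every KO sample above and 30.3% below. At 10 counts these shares were 9.56%, 9.7% and 6.53%. The other shares moved less: 27.1% against 24.7% for KO below in mRNA, and 13.6% in both for KO above and 7.58% against 7.8% for KO below in footprints. At 10 counts the mRNA and footprint sets were filtered on their own assay alone, so the filter differs as well as the bound. Read number limits the precision: WT footprint libraries 1 and 2 held 4 counts or fewer of each transcript.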

Other observations

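Within the KO group, the library with the lowest footprint level of uc008dpc.1, KO library 1 at 14.2 CPM, had the highest mRNA level, 24.0 CPM, and the library with the highest footprint level, KO library 3 at 32.5 CPM, had the lowest mRNA level, 14.2 CPM. In WT the highest footprint level, 6.10 CPM from 2 reads (Wilson interval 1.67 to 22.2), and the highest mRNA level, 36.2 CPM, were both in library 1. Each group has 3 libraries and the labels do not pair them, so this was not tested.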
